A study of Homo sapiens with 12 samples.

Results

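The response of LNCaP cells to the synthetic androgen R1881 was measured while serum response factor (SRF) was silenced. LNCaP is an androgen-sensitive human prostate adenocarcinoma line. All cells in the series were held without androgen for 48 h and then transfected with control siRNA or with siRNA against SRF. R1881 at 5 nM, or ethanol as its vehicle, was added 42 h after transfection and left for 48 h. The comparison set the 3 arrays of SRF-silenced cells given R1881 against the 3 arrays of SRF-silenced cells given vehicle, which are 6 of the 12 expression arrays of the series. The other 6 arrays, of cells with control siRNA given R1881 or vehicle, were used where the hormone response itself was compared between the siRNAs. Each array was probed with cRNA made from 3.5 µg of total RNA, and each value is a log2 signal. A gene was tested when a probe set assigned to it alone exceeded a log2 value of 4 on at least 3 of the 12 arrays, and its probe set with the highest mean was used. This left 10265 of the 19775 genes that had such a probe set. Whether the arrays of a group, labelled as biological replicates, had cultures of their own is not stated, and each p-value therefore reflects the spread among these samples, which may be technical.

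The androgen receptor is a transcription factor that enters the nucleus when it binds hormone and, in prostate epithelium, switches on genes of secretion, lipid synthesis and differentiation while lowering others. SRF binds CArG boxes together with ternary complex factors or with actin-sensing cofactors and drives immediate-early and cytoskeletal genes. R1881 binds the androgen receptor tightly and is used in culture because cells degrade it slowly. The comparison asks which part of the hormone response ran in cells in which SRF had been lowered.

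SRF itself stood at 4.56, 5.06 and 4.58 on the 3 silenced vehicle arrays and at 4.89, 4.98 and 4.73 on the 3 silenced R1881 arrays. The control siRNA arrays lay higher, at 5.91, 6.14 and 6.17 in vehicle and 6.50, 6.25 and 6.16 in R1881, with no overlap, and R1881 left SRF in silenced cells within the spread of the arrays (0.13 ± 0.14, limma adjusted p = 0.454). Arrays of 1 silenced group correlated at 0.996 to 0.998 over all probe sets and arrays of different silenced groups at 0.982 to 0.984. All 8 luminal prostate markers were expressed, while 5 of 6 markers of basal or mesenchymal lines, 5 of 7 of fibroblasts, 4 of 5 of leukocytes and 3 of 4 of endothelium were under 4 on all 6 silenced arrays. RNA integrity was read from the GAPDH control probe sets at the 3-prime and 5-prime ends of the message, whose difference was 0.37, 0.32 and 0.39 in vehicle and 0.37, 0.45 and 0.64 in R1881 (exact two-sided permutation p = 0.3, where 0.1 is the smallest that 3 against 3 arrays allow). On the control siRNA arrays, on which every difference between the siRNAs also rests, it was 0.067, 0.24 and 0.11 in vehicle and 0.45, 0.45 and 0.49 in R1881, with no overlap (exact two-sided permutation p = 0.1). With the measure as a covariate 1187 genes had a higher and 724 a lower response to R1881 in silenced than in control cells, against 1359 and 1082 without it. The third silenced R1881 array had the highest value of this measure, and its part in the results below was tested by leaving it out.

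R1881 changed the level of about 1 gene in 2 in SRF-silenced cells. At an adjusted p under 0.05 in limma, with Benjamini-Hochberg adjustment over the 10265 genes, 2614 genes (25.5%) were higher and 2839 (27.7%) were lower with R1881. The 3 R1881 arrays did not overlap the 3 vehicle arrays for 6080 genes (59.2%). Most of these changes were small: 3012 of the 5453 called genes (55.2%) changed by less than 1.5-fold, and the median size of a called change was 0.53 on the log2 scale. At 2-fold or more, 571 genes (5.56%) were higher and 524 (5.1%) lower, and 167 and 136 passed 4-fold. The median change over all tested genes was -0.03. In what follows a level is a log2 signal, given for arrays 1, 2 and 3 of a group in this order, and a change is the R1881 mean minus the vehicle mean on the log2 scale ± the SE of the limma fit. Levels of different genes cannot be set against each other, because each is read by its own probes.

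The largest rises among genes expressed in both silenced groups were those of a transcription factor, of secretory and lipid enzymes and of proteins that damp hormone and growth factor signals. MAF, which encodes a basic leucine zipper transcription factor, read 7.82, 7.64 and 7.76 in vehicle and 12.43, 12.55 and 12.49 in R1881. This was a rise of 4.75 ± 0.07 (adjusted p = 1.17e-12), or 27-fold, and its groups lay far apart. Each of the 5 MAF probe sets that passed rose. AGR2, a protein disulfide isomerase of the endoplasmic reticulum (ER) made by secretory epithelia, read 7.62, 8.01 and 7.74 in vehicle against 12.23, 12.17 and 12.28 in R1881, a rise of 4.43 ± 0.10. SIPA1L2, related to Rap GTPase-activating proteins, went from 7.07, 7.20 and 6.97 to 11.29, 11.52 and 11.67, and ANKRD37, an ankyrin repeat protein gene, from 6.49, 6.58 and 6.41 to 10.80, 10.81 and 10.91. FKBP5 encodes a co-chaperone that lowers the hormone affinity of steroid receptors and is part of their negative feedback. It read 8.66, 8.79 and 8.64 in vehicle and 12.77, 12.86 and 12.98 in R1881, a rise of 4.17 ± 0.08, and its other 2 probe sets rose by 4.56 and 4.73. GNMT, the glycine methyltransferase that uses up S-adenosylmethionine, rose by 4.10 ± 0.12, and the membrane protein gene TM4SF1 by 3.87 ± 0.08. ERRFI1, which encodes an inhibitor of the epidermal growth factor receptor, went from 8.08, 8.02 and 8.04 to 11.59, 11.65 and 11.67, and the fatty acid elongase gene ELOVL7 from 7.96, 7.75 and 7.80 to 11.51, 11.49 and 11.47. LXN, the carboxypeptidase inhibitor latexin, rose by 3.33 ± 0.12 and completed the 12 largest rises with KLK3 and UGT2B28, described below. None of these 12 genes overlapped between the groups, which their choice required.

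**Figure D1:**
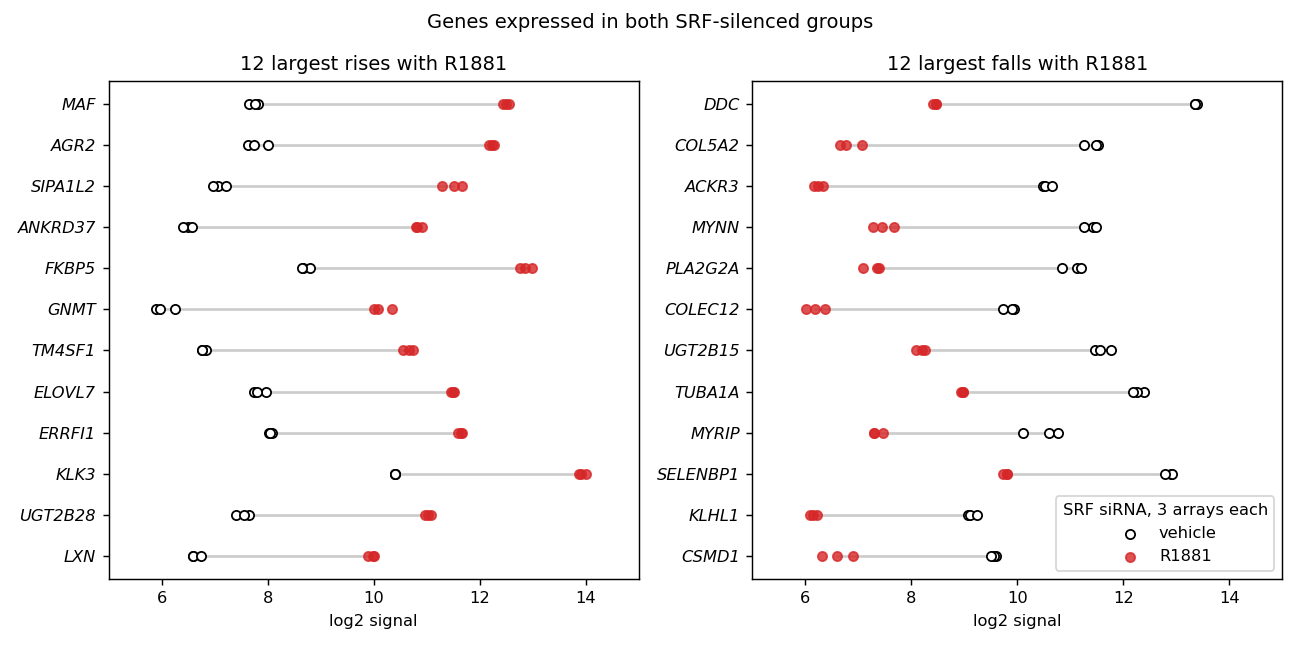
Log2 signal of the 12 genes with the largest rises and the 12 with the largest falls among genes with both silenced group means at 6 or more, on each of the 3 vehicle arrays (open circles) and the 3 R1881 arrays (filled circles) of SRF-silenced cells. For all 24 genes the circles of 1 group lie to 1 side of the other group, with MAF going from a mean of 7.74 to 12.49 and DDC from 13.36 to 8.44.

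DDC, COL5A2 and ACKR3 had the largest falls among genes expressed in both silenced groups. DDC, the decarboxylase that makes dopamine and serotonin, read 13.35, 13.39 and 13.34 in vehicle and 8.47, 8.46 and 8.40 in R1881, a change of -4.92 ± 0.08 (adjusted p = 1.44e-12) that left 3.31% of the vehicle signal. COL5A2, a chain of fibrillar collagen, went from 11.26, 11.52 and 11.49 to 6.77, 6.65 and 7.08, and ACKR3, a scavenging receptor for the chemokine CXCL12, from 10.48, 10.52 and 10.64 to 6.23, 6.34 and 6.17. The zinc-finger gene MYNN fell by 3.93 ± 0.10, and all 5 of its passing probe sets fell, by 2.89 to 4.63. Next to MYNN on chromosome 3, with no protein-coding gene between them in the RefSeq table, lies ACTRT3, an actin-related protein gene, which went from 8.34, 8.26 and 8.37 to 3.61, 3.88 and 3.19. Both neighbours thus fell together, by 3.93 and 4.77. PLA2G2A, a secreted phospholipase, read 10.84, 11.12 and 11.20 in vehicle and 7.39, 7.09 and 7.35 in R1881, a wider spread than most. The scavenger receptor gene COLEC12 fell by 3.67 ± 0.13, the tubulin gene TUBA1A by 3.32 ± 0.09, and MYRIP, which links Rab proteins to myosin, by 3.14 ± 0.13. SELENBP1, a selenium-binding protein gene often lost in carcinomas, went from 12.89, 12.91 and 12.79 to 9.73, 9.81 and 9.81. The kelch family gene KLHL1 and the complement-regulator-like gene CSMD1 fell by 2.98 ± 0.09 and 2.94 ± 0.16.

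A smaller set of genes went from background to clear expression, or the reverse. With R1881, 27 genes rose from under 4 on all 3 vehicle arrays to above 6 on all 3 R1881 arrays, and 10 genes went the other way. HPGD, whose enzyme inactivates prostaglandins, read 3.46, 3.76 and 3.18 in vehicle and 9.91, 10.21 and 10.31 in R1881. The scaffold gene AKAP12, which anchors protein kinase A, went from 2.71, 2.38 and 2.47 to 8.04, 8.13 and 8.21, and the muscle protein gene MYBPC1 from 3.52, 3.04 and 3.02 to 8.35, 8.57 and 8.71. PGC, which encodes the aspartic protease progastricsin found in seminal fluid, read 3.85, 3.49 and 3.81 and then 8.98, 8.82 and 9.04. ORM1, a plasma acute-phase glycoprotein gene, rose from 3.29 ± 0.27 to 8.50 ± 0.30 (SD, n = 3 each), and the metalloreductase gene STEAP4 from 3.02 ± 0.21 to 8.14 ± 0.38. Of the 27 genes, 18 were also under 4 on all 3 vehicle arrays with control siRNA and 20 were above 6 on all 3 control R1881 arrays. The peptide hormone gene GCG, which encodes proglucagon, went the other way, from 8.47, 8.60 and 8.99 in vehicle to 2.44, 2.40 and 2.19 in R1881, and the neurotensin gene NTS from 8.77, 8.76 and 8.82 to 2.61, 2.49 and 2.46. OPRK1, the kappa opioid receptor gene, fell from 8.47 ± 0.26 to 3.60 ± 0.10, and the tooth and epithelial protein gene ODAM from 6.51 ± 0.12 to 3.03 ± 0.06. SI, which encodes the gut disaccharidase sucrase-isomaltase, fell from 6.43 ± 0.16 to 2.92 ± 0.08, and ANTXR1 and CNBD1 also fell below 4. Because the lower group of these genes lies at the array's background, the size of their change depends on the background estimate, and with values under 4 set to 4 the changes of HPGD and GCG were 6.14 and -4.69.

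The classical androgen targets responded in the silenced cells. Of 37 androgen-induced targets tested, 36 rose and 1 fell, against 25.5% of all genes higher and 27.7% lower, and their median change was 2.54. The difference from the response with control siRNA was above 0 for 9 of the 37 and below 0 for 15, against 13.2% and 10.5% of all genes. Since these targets are known in part from LNCaP cells, the direction of the list is not independent evidence. KLK3, which encodes prostate-specific antigen, read 10.39, 10.40 and 10.40 in vehicle and 14.01, 13.91 and 13.88 in R1881, a rise of 3.54 ± 0.06 (adjusted p = 1.60e-12), or 11.6-fold. Next to it on chromosome 19 lies KLK2, the gene of the related protease that activates prostate-specific antigen, which went from 5.73, 5.69 and 5.99 to 11.69, 11.64 and 11.68. Both kallikrein genes were at separate levels in the 2 groups, and KLK2 rose more steeply, by 5.87 ± 0.08. The membrane protease gene TMPRSS2 rose by 3.25 ± 0.07, and 8 of the 10 kallikreins and membrane serine proteases tested rose with none falling. ACP3, the gene of prostatic acid phosphatase, was the only member of the androgen-induced list to fall, from 12.89 ± 0.07 to 11.97 ± 0.03 (SD, n = 3 each).

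The KLK3 promoter is shown because it is a textbook site of androgen receptor binding.
Capitals mark AGAACA, a single arm of the androgen response element, which was searched on both strands of the 250 bases before the RefSeq start of each gene (GRCh38.p14, chr19:50854665-50854914, plus strand).
It stood in 1 place, 170 bases before the start.

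KLK3: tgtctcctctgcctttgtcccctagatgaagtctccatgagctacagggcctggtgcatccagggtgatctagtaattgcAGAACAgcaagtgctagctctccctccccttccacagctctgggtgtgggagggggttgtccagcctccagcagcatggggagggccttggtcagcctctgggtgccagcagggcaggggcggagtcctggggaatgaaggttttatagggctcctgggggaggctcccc

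The same letters stood in this window in 2 of the 30 androgen-induced targets with a promoter entry (6.67%), in 7.15% of the 8514 tested genes with an entry and in 12.4% of the 27305 promoters of the table. A form of the full element with loose letters, GNACANNNTGTNC, stood in none of the 30, in 0.153% of tested genes and in 0.33% of all promoters. Other forms of the full element, with less matched arms, were not searched, so KLK3 may hold such a form here. A match is a description of these letters and not a bound site, and no match says only that the letters are not in this window.

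Androgen-repressed genes fell in 11 of 13 cases and rose in 2, against 27.7% and 25.5% of all genes, with a median change of -3.22. The fall was smaller than with control siRNA for several of them: the difference between the 2 hormone responses was above 0 for 8 of the 13 and below 0 for 2, against 13.2% and 10.5% of all genes. ACKR3 fell by 4.30 here and by 6.82 with control siRNA, from vehicle levels of 10.55 and 10.88, a difference of 2.52 ± 0.17 (adjusted p = 1.13e-06). Its R1881 level was 6.25 ± 0.09 in silenced cells and 4.06 ± 0.28 in control cells (SD, n = 3 each), so that the gene stayed higher on the silenced arrays after hormone. At its passing probe set of the lowest mean the difference was -0.081 and did not pass. That probe set had means of 6.32 in silenced vehicle and 2.96 in silenced R1881, the latter at background, which limits what its difference can show. MMP16, a membrane-bound matrix protease gene, went from 10.19, 10.15 and 10.11 to 7.35, 7.73 and 7.85 in silenced cells, a fall of 2.50. The opposite held for DDC, whose fall was larger in silenced cells (difference -0.51 ± 0.11). BMPR1B, a receptor of bone morphogenetic proteins, and the nicotinic receptor gene CHRNA2 were the 2 members that rose, by 1.92 ± 0.10 and 0.63 ± 0.19, although the call of CHRNA2 was lost without the second silenced vehicle array or the first silenced R1881 array, with changes of 0.50 and 0.46.

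Enzymes that convert or inactivate steroids moved in both directions. Of 14 tested, 10 rose and 2 fell, against 25.5% and 27.7% of all genes, and the difference from control siRNA was above 0 for 6 and below 0 for 3, against 13.2% and 10.5%. UGT2B28, UGT2B15 and UGT2B17 encode enzymes of 1 family that attach glucuronic acid to steroids, and their genes lie in 1 cluster on chromosome 4. UGT2B28 read 7.40, 7.64 and 7.55 in vehicle and 10.97, 11.02 and 11.07 in R1881, while UGT2B15 read 11.46, 11.57 and 11.76 and then 8.08, 8.19 and 8.26. The first thus rose by 3.49 ± 0.10 as the second fell by 3.42 ± 0.09, and UGT2B17 fell by 3.22 ± 0.12. The probe sets of UGT2B28 and UGT2B15 carry the maker's mark for probes that may bind related transcripts, and these genes are close copies, so their separate levels are uncertain. HSD11B2, whose enzyme turns cortisol into cortisone, rose by 1.50 ± 0.11, and CYP3A5, a cytochrome that hydroxylates steroids, by 1.56 ± 0.20. For CYP3A5 the change with control siRNA was 0.24 and the difference 1.32 ± 0.29.

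Among genes of luminal secretion, sugar transfer, polyamines and prostaglandins more rose than fell, against 25.5% of all genes higher and 27.7% lower. Of 11 prostate secretory products 6 rose, among them PGC, ORM1 and AGR2, and 2 fell. ST6GALNAC1, the sialyltransferase that caps O-glycans on mucins, read 4.94, 4.58 and 4.95 in vehicle and 10.56, 10.79 and 11.01 in R1881, and 17 of 27 genes of O-glycan, sialic acid and hexosamine enzymes rose while 5 fell. UAP1, which makes the sugar donor for N-linked and O-linked glucosamine, rose by 2.26 ± 0.06, and GALNT3, which starts O-glycans, fell by 1.93 ± 0.07. Spermine synthase (SMS) and the spermidine acetyltransferase gene SAT1 rose by 2.10 ± 0.07 and 1.99 ± 0.08, as 6 of 17 polyamine genes rose and 2 fell. The prostaglandin receptor gene PTGER4 went from 3.70 ± 0.44 to 8.88 ± 0.16 (SD, n = 3 each), and the prostaglandin and drug exporter gene ABCC4 rose by 1.98 ± 0.10. RAB3B and RAB27A, small GTPases of secretory vesicles, rose by 3.00 ± 0.10 and 2.88 ± 0.14, but of 37 Rab GTPase genes 12 rose and 10 fell, near the 25.5% and 27.7% of all genes. With the passing probe set of the lowest mean in place of the highest, 6 Rab genes rose and 6 fell, and 11 of the O-glycan, sialic acid and hexosamine enzymes rose.

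Most genes of lipid synthesis rose, against 25.5% of all genes higher and 27.7% lower. Of 26 genes of cholesterol synthesis and uptake 19 rose and 4 fell, with a median change of 0.88, and of 24 genes of fatty acid synthesis and storage 15 rose and 2 fell, with a median of 0.53. HMGCS1, the synthase that opens the mevalonate pathway, read 6.58, 6.34 and 6.58 in vehicle and 8.83, 8.82 and 8.82 in R1881. INSIG1, which holds the sterol sensor SCAP in the ER, rose by 1.84 ± 0.08, and the related INSIG2 fell from 9.85, 9.88 and 9.98 to 7.18, 7.11 and 7.06. INSIG1 and INSIG2 thus moved in opposite directions, as they also did with control siRNA, where the changes were 2.95 and -1.73. The rise of INSIG1 was smaller than with control siRNA (difference -1.11 ± 0.11), and the fall of INSIG2 was larger (difference -1.05 ± 0.10). Squalene epoxidase (SQLE) rose by 1.66 ± 0.09, the elongase gene ELOVL5 by 1.99 ± 0.06 and the monoglyceride lipase gene MGLL by 2.38 ± 0.19. ABCG1, which exports cholesterol, fell by 1.61 ± 0.09, and GPAM, the acyltransferase that starts glycerolipid synthesis, by 0.82 ± 0.15. TCACNCCAC, a form of the sterol response element, stood in 1 of 22 cholesterol gene promoters (4.55%), in 0.822% of tested genes and in 0.875% of all promoters.

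In the ER and the early secretory pathway many more genes rose than fell, and where the responses of the siRNAs differed the silenced one was nearly always the lower. Of 37 genes of ER folding, degradation and the unfolded protein response 22 rose and 2 fell (0 to 2 across the alternatives), with a median change of 0.36 against 0.79 with control siRNA. Of 62 genes of translocation into the ER, N-glycosylation and vesicle coats 34 rose and 5 fell, with medians of 0.26 and 0.66. The difference between the responses was below 0 for 17 of the 37 and 39 of the 62 genes, against 10.5% of all genes. It was above 0 for 1 and 0, against 13.2%, and the rises and falls stand against 25.5% and 27.7%. ERO1A, the oxidase that drives disulfide formation, read 6.33, 6.89 and 6.71 in vehicle and 9.58, 9.38 and 9.34 in R1881. HERPUD1, a part of ER-associated degradation, rose by 1.63 ± 0.09, and XBP1, a transcription factor of the unfolded protein response, by 1.52 ± 0.07. KDELR3, a receptor that returns chaperones to the ER, rose by 2.26 ± 0.19, and the signal peptidase genes SPCS3 and SEC11C by 1.74 ± 0.10 and 1.58 ± 0.08. For none of these 6 genes did the difference between the responses pass the test. With the passing probe set of the lowest mean 22 of the translocation and vesicle coat genes rose, and without the third array of both silenced groups 3 fell.

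Cell division genes fell together. Of 53 genes of mitosis and chromosome segregation none rose and 49 fell, 42 of them by 2-fold or more, against 27.7% and 5.1% of all genes, with a median change of -1.73. CDC20, which activates the anaphase-promoting complex, read 7.74, 7.61 and 7.88 in vehicle and 4.78, 5.23 and 5.21 in R1881, a change of -2.67 ± 0.16 (adjusted p = 3.41e-08) that left 15.7% of the signal. ASPM, a spindle pole protein gene, went from 5.74, 5.46 and 5.90 to 2.70, 2.86 and 3.30, and CENPF, of the kinetochore, from 6.95, 7.25 and 7.21 to 4.39, 4.29 and 4.73. The fall of ASPM was larger than with control siRNA (difference -1.98 ± 0.36). With values under 4 set to 4 its change and its difference were both -1.70, so hardly any of its control change lay above 4. Across the 53 genes the difference was above 0 for 11 and below 0 for 10, against 13.2% and 10.5% of all genes. CCNB2, a mitotic cyclin gene chosen after its values were seen, read 8.34, 8.19 and 8.34 and then 6.14, 6.26 and 6.17, and its fall was smaller than with control siRNA by 1.22 ± 0.28, or by 0.74 with values under 4 set to 4. In bulk RNA a fall of this kind can come from fewer dividing cells or from less RNA per cell, which cannot be told apart.

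Of 50 genes of DNA replication and nucleotide synthesis 34 fell and 3 rose, against 27.7% of all genes lower and 25.5% higher. Their median change was -0.59. The ribonucleotide reductase gene RRM2 went from 9.78, 9.76 and 9.90 to 7.64, 7.92 and 7.96, and its fall was smaller than with control siRNA by 2.99 ± 0.35 (adjusted p = 9.34e-05). Cyclin E2 (CCNE2) fell by 2.45 ± 0.16 and thymidine kinase (TK1) by 2.05 ± 0.23, and the primase subunit gene PRIM2 rose by 1.48 ± 0.15. The difference was above 0 for 13 of the 50 genes and below 0 for 1, against 13.2% and 10.5% of all genes. Among 27 genes that gate entry to the cycle, CDKN2B, an inhibitor of the G1 cyclin kinases, read 4.16, 4.44 and 3.50 in vehicle and 6.83, 6.95 and 7.09 in R1881. It rose more than with control siRNA, by 1.61 ± 0.26. SKP2, which marks such inhibitors for degradation, fell by 1.09 ± 0.10.

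Promoters of CDC20 and CCNB2 are shown because cell division genes are known to be read from CHR elements and CCAAT boxes, and both genes fell here.
Capitals mark TTTGAA and CCAAT on either strand in the 250 bases before the start (GRCh38.p14, plus strand, chr1:43358731-43358980 and chr15:59104896-59105145).

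CDC20: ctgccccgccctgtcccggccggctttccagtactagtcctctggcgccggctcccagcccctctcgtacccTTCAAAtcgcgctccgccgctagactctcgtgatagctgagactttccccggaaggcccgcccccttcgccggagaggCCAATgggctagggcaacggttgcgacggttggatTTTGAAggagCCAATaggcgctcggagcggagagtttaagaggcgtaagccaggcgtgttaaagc
CCNB2: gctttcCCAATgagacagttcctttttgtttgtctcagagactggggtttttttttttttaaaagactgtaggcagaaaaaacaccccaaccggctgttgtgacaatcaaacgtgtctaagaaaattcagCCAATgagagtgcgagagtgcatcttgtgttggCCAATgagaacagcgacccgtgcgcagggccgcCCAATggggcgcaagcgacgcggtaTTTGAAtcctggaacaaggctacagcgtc

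The CDC20 window held TTTGAA in 2 places and CCAAT in 2, and the CCNB2 window held them in 1 and 4, with no overlap between the 2 motifs. TTTGAA stood in 23 of the 43 mitosis genes with a promoter entry (53.5%), in 8.07% of tested genes and in 13.6% of all promoters, and CCAAT in 32 of the 43 (74.4%), in 36.4% of tested genes and in 33% of all promoters.

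Most genes of NF-kappa-B signalling and most of a list of chemokines and related genes rose in silenced cells. NF-kappa-B is a family of transcription factors held in the cytoplasm by inhibitors and released by inflammatory signals, and it raises its own inhibitors. Of 17 subunits and feedback targets 13 rose and 1 fell, against 25.5% and 27.7% of all genes. Their median change was 1.28 against 0.11 with control siRNA, where 8 rose and 2 fell, against 26.9% and 33.8%. The difference was above 0 for 8 of the 17 and below 0 for 0, against 13.2% and 10.5% of all genes. The chemokine list also holds CXADR, IL1RN, LIF and TNFSF15, which encode no chemokine or chemokine receptor, and shares CXCL8 and CCL20 with the NF-kappa-B list. Of its 12 genes 8 rose and 3 fell, and the difference was above 0 for 8, of which ACKR3 and IL1RN fell less than with control siRNA and the other 6 rose. CXCL10, a chemokine that draws T cells, read 2.91, 2.63 and 2.52 in vehicle and 7.97, 8.22 and 8.06 in R1881, a rise of 5.40 ± 0.10 (adjusted p = 2.40e-12). With control siRNA it read 5.09, 5.10 and 5.12 and 7.37, 7.34 and 7.33, so that its vehicle level was lower and its R1881 level higher in silenced cells, a difference of 3.15 ± 0.14. CXCL11, its neighbour on chromosome 4 with the same receptor, went from 2.85, 2.48 and 2.32 to 7.23, 7.0 and 6.91, a rise larger by 1.37 ± 0.19. CXCL8, a neutrophil attractant, read 3.05, 3.01 and 2.94 in vehicle and 5.62, 5.61 and 5.78 in R1881 in silenced cells, against 2.83, 3.01 and 3.09 and 3.01, 3.07 and 3.05 with control siRNA. The 3 silenced R1881 arrays thus stood alone above background, with a rise of 2.67 ± 0.08 and a difference of 2.61 ± 0.11 (adjusted p = 4.10e-08). CCL20, which draws cells bearing CCR6, went from 2.66, 2.54 and 2.54 to 5.05, 6.33 and 6.36 in silenced cells and from 2.57 to 2.69 in control cells, a difference of 3.22 ± 0.37. TNFAIP3, a ubiquitin-editing inhibitor of the pathway, rose by 5.05 ± 0.28, and its change with control siRNA was 4.12. Its silenced vehicle mean of 2.57 was at background, and with values under 4 set to 4 its silenced rise was 3.62. The subunit gene NFKB1 fell by 1.20 ± 0.09, and IL1RN, the interleukin 1 receptor antagonist gene, fell from 10.28 ± 0.14 to 5.97 ± 0.10 (SD, n = 3 each). Of the 5 leukocyte markers, the defining markers PTPRC and CD3E were under 4 on all 6 silenced arrays, and the 5 together had array means of 2.49 to 2.52 in vehicle and 2.65 to 3.01 in R1881. LYZ, the lysozyme gene, was the only one of them to reach 4, at 4.69 on the third R1881 array. Where genes had to exceed 6 on 3 arrays, 7 NF-kappa-B genes and 5 chemokine genes rose, since the low members were no longer tested. CXCL8 and CCL20 passed the filter through their silenced R1881 arrays alone, so their rises and differences follow from the filter. They add no support to the counts of either list. Among tested genes with a silenced vehicle mean under 4, 45.3% rose and 4.72% fell. With values under 4 set to 4 the rises of CXCL8, CCL20 and CXCL10 were 1.67, 1.91 and 4.08, and the differences of CXCL8, CCL20, CXCL10 and CXCL11 were 1.67, 1.91, 1.84 and 0.90.

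CXCL8 and CXCL10 promoters are shown because the pair rose together and GGNNNTTCC is a loose form of the NF-kappa-B site.
Capitals mark it on either strand in both, and in CXCL10 they also mark GAAANNGAAA, the core of the interferon-stimulated response element, which did not overlap it (GRCh38.p14, CXCL8 chr4:73740319-73740568 on the plus strand, CXCL10 chr4:76023498-76023747 on the minus strand).

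CXCL8: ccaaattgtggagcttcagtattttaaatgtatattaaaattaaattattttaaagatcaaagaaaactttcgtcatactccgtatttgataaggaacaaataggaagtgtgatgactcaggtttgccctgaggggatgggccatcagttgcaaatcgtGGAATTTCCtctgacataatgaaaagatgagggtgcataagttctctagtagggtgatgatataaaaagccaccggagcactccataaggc
CXCL10: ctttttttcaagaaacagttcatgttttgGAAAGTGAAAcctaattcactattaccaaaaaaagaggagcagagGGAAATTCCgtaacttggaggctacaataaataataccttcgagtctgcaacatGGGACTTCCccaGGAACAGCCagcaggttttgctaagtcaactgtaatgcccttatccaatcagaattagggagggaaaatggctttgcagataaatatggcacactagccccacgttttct

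The NF-kappa-B letters stood in 1 stretch of CXCL8 and in 3 stretches of CXCL10, counting a stretch that matches on both strands once. They were found in 5 of 7 chemokine and receptor genes with a promoter entry (71.4%), in 7 of 15 NF-kappa-B genes (46.7%), in 20.3% of tested genes and in 17.1% of all promoters.

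Interferon response genes rose in silenced cells, where with control siRNA most of those called fell. Interferons are cytokines that raise a large set of antiviral genes. Of 34 such genes 26 rose and 1 fell, against 25.5% and 27.7% of all genes, with a median change of 0.76. By 2-fold or more 13 rose, against 5.56% of all genes. With control siRNA 6 rose and 17 fell, against 26.9% and 33.8% of all genes, with a median of -0.35. The difference was above 0 for 25 and below 0 for 2, against 13.2% and 10.5% of all genes. IFIT2, an antiviral RNA-binding protein gene, read 6.91, 7.08 and 7.09 in vehicle and 8.62, 8.59 and 8.71 in R1881 in silenced cells, and 9.01, 8.80 and 8.82 and 8.35, 8.49 and 8.39 with control siRNA. IFIT3, next to it on chromosome 10, read 7.78, 7.62 and 7.40 and 8.84, 8.84 and 8.95 in silenced cells, against 8.57, 8.56 and 8.71 and 7.65, 7.97 and 7.89 with control siRNA. In both genes the R1881 arrays lay above the vehicle arrays in silenced cells and below them in control cells, with differences of 2.08 ± 0.12 and 2.06 ± 0.15. RSAD2, which encodes viperin, rose from 4.62 ± 0.32 to 6.07 ± 0.41 and fell with control siRNA from 6.78 ± 0.24 to 6.06 ± 0.08 (SD, n = 3 each), so that the siRNAs overlapped after R1881 and not in vehicle. HERC5, a ligase for the ubiquitin-like protein ISG15, rose by 1.81 ± 0.20, and IFI35 by 1.59 ± 0.14. GBP2, an interferon-induced GTPase gene, was the only member that fell, by 2.65 ± 0.11.

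Of 16 genes of antigen presentation 11 rose and none fell, against 25.5% and 27.7% of all genes, with a smaller median of 0.43. The peptide transporter gene TAP1 read 7.78, 7.70 and 7.74 in vehicle and 8.58, 8.67 and 8.74 in R1881, and HLA-E rose by 0.74 ± 0.07. With control siRNA 6 of the 16 rose and 7 fell, against 26.9% and 33.8% of all genes. The difference was above 0 for 12 and below 0 for 3, against 13.2% and 10.5%. For HLA-DMA, a chaperone of class II molecules, the rise of 0.73 ± 0.14 was smaller than with control siRNA (difference -1.48 ± 0.19). With the passing probe set of the lowest mean, 7 of the 16 rose.

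Promoters of IFIT1 and IFIT3 are shown because both genes rose here and both windows hold the interferon element.
IFIT1 falls outside the naming rule and was picked with its values known; it rose by 1.02 ± 0.10 in silenced cells.
Capitals mark GAAANNGAAA, here read on the opposite strand (GRCh38.p14, plus strand, chr10:89392373-89392622 and chr10:89327747-89327996).

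IFIT1: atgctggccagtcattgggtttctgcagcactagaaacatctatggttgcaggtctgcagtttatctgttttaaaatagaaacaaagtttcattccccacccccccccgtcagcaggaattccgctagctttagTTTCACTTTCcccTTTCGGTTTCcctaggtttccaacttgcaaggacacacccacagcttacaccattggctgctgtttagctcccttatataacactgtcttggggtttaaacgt
IFIT3: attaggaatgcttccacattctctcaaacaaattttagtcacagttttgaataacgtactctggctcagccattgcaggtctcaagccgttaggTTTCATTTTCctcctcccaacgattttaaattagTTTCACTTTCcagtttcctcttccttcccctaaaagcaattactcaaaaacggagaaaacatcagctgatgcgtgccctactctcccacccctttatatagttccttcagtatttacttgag

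Each window held it in 2 places. The letters stood in 15 of the 28 interferon genes with a promoter entry (53.6%), in 2.22% of tested genes and in 3.07% of all promoters.

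**Figure D2:**
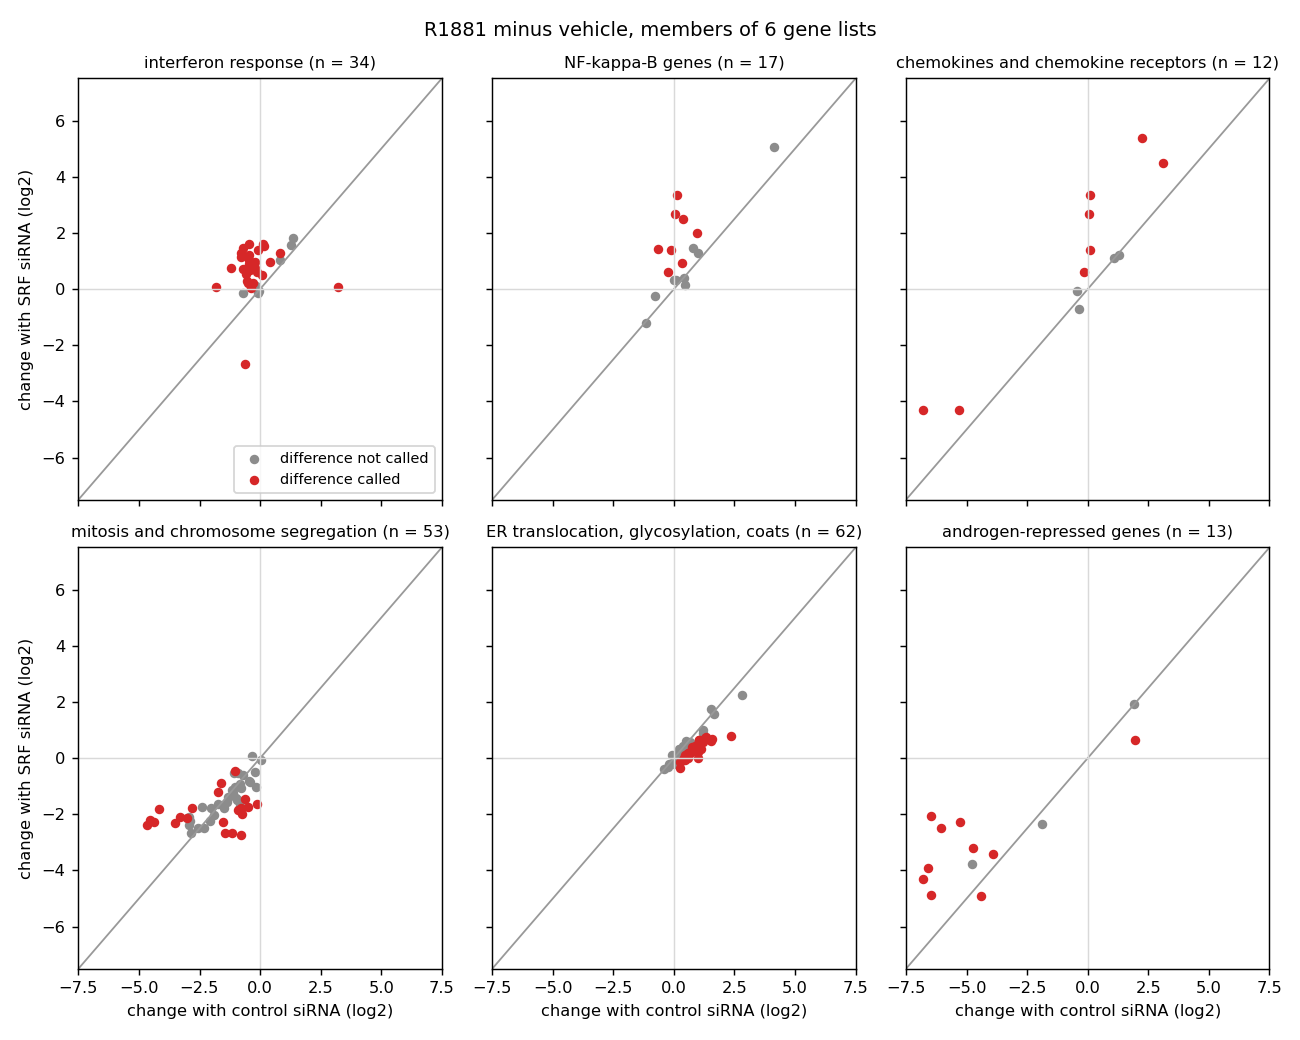
Change with R1881 (log2, R1881 minus vehicle) of every tested member of 6 gene lists, with SRF siRNA on the vertical axis and control siRNA on the horizontal axis; each point is 1 gene and the diagonal marks equal responses. Most interferon genes lie above the diagonal, with medians of 0.76 and -0.35, and most genes of ER translocation and vesicle coats below it, with medians of 0.26 and 0.66.

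Some genes answered R1881 in silenced cells and hardly moved in control cells. By the rule of a called difference, a change of 2-fold or more in silenced cells and a change under 0.5 and not called with control siRNA, there were 47 such rises and 33 such falls. The values that follow describe these genes, since the contrast they show is the one that chose them. SERPIND1, which encodes the thrombin inhibitor heparin cofactor II, read 2.26, 2.18 and 2.11 in silenced vehicle and 6.92, 6.57 and 6.74 in silenced R1881, while its control means were 2.22 and 2.29. SERPINE2, the gene of protease nexin-1, went from 3.34, 4.33 and 4.27 to 7.67, 8.26 and 7.77, with control means of 4.63 and 4.26. For both genes the 3 silenced R1881 arrays stood above the means of the other groups, and SERPIND1 was under 4 in each of those means. SERHL2, a serine hydrolase-like gene, rose from 3.55 ± 0.07 to 7.77 ± 0.23, and FKBP1B, which encodes a calcium channel-binding immunophilin, from 2.64 ± 0.06 to 5.80 ± 0.30 (SD, n = 3 each). OR51E2, an olfactory receptor gene known from prostate epithelium, rose from 2.38 ± 0.33 to 5.30 ± 0.61, and EBF2, a transcription factor gene, by 2.24 ± 0.14. Among the falls, BDNF, the brain-derived neurotrophic factor gene, read 4.85, 4.99 and 4.88 in vehicle and 2.55, 2.52 and 2.50 in R1881, with control means of 2.50 and 2.51. The 3 silenced vehicle arrays were thus the high ones, and R1881 left the gene at the control level. The axon guidance gene SLIT1 fell by 2.30 ± 0.17 and the iron exporter gene SLC40A1, ferroportin, by 1.77 ± 0.23. The long noncoding RNA gene DRAIC went from 8.51, 8.67 and 8.53 to 6.93, 6.53 and 6.81, and the guanine exchange factor gene DOCK4 from 8.03, 8.26 and 8.28 to 6.32, 6.24 and 6.67. RANBP3L, SERAC1 and CCDC85A fell by 2.44, 2.10 and 1.70. For genes that touch the background the size rests on it: with values under 4 set to 4 the changes were 2.74 for SERPIND1, 1.80 for FKBP1B, 1.30 for OR51E2, 0.90 for EBF2, -0.91 for BDNF and -1.21 for SLIT1.

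Another 161 genes were called in opposite directions by the siRNAs, 99 higher with R1881 in silenced cells and lower in control cells, and 62 the reverse. For 1 of them both changes were 2-fold or more. ZPLD1, a zona pellucida domain gene, rose by 2.63 ± 0.17 in silenced cells and changed by -1.25 with control siRNA. TFF1, the trefoil peptide of mucous epithelia, read 7.65, 7.76 and 7.61 in silenced vehicle and 9.66, 9.39 and 9.93 in silenced R1881, against control means of 5.04 and 4.32. ADRA2A, an adrenergic receptor gene, went from 9.72 ± 0.07 to 10.44 ± 0.09 in silenced cells and from 7.63 ± 0.08 to 5.62 ± 0.18 in control cells (SD, n = 3 each), so the gap between the siRNAs was wider after hormone. TTR, which encodes the thyroxine carrier transthyretin, rose by 2.75 ± 0.13 from a vehicle level of 2.70, or by 1.45 with values under 4 set to 4. In the other direction, RHOBTB3 fell by 1.63 ± 0.18, and ANKRD22 by 0.72 ± 0.15 where it changed by 1.60 with control siRNA. RLN1, the relaxin 1 hormone gene, read 11.47, 11.14 and 11.31 and then 10.53, 10.61 and 10.56, and PHACTR2, a phosphatase and actin regulator gene, fell by 0.58 ± 0.11. ST6GALNAC4, a sialyltransferase gene, fell by 1.13 and changed by 0.55 with control siRNA.

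Of the 5453 genes called in silenced cells 4260 (78.1%) were also called with control siRNA, 4099 of them in the same direction. These 4260 were 68.4% of the 6225 genes called with control siRNA, which are themselves 60.6% of all genes tested. The other 1193 were not called with control siRNA, and for 412 of those 1193 the difference itself passed the test. Of the 1095 genes that changed by 2-fold or more in silenced cells, 557 (50.9%) had a called difference. The tests of these differences share the silenced arrays with the changes they are set beside.

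**Figure D3:**
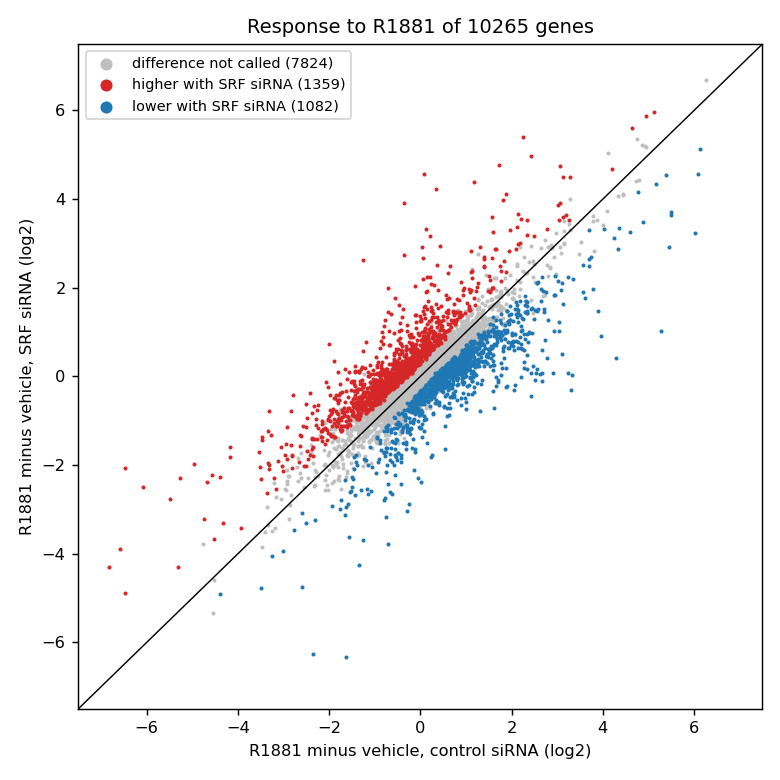
Change with R1881 (log2, R1881 minus vehicle) of the 10265 tested genes with control siRNA (horizontal) and SRF siRNA (vertical); grey points are genes whose difference between the siRNAs did not pass the test, red points the 1359 genes with a higher response in silenced cells and blue points the 1082 with a lower one, and the line marks equal responses. Most points lie along the line, with GCG far below it at -6.34 on the vertical axis and -1.64 on the horizontal one.

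GCG and NTS fell further in silenced cells than in control cells. GCG changed by -6.34 in silenced cells and -1.64 in control cells, a difference of -4.70 ± 0.38, and NTS by -6.26 and -2.36, a difference of -3.90 ± 0.23. The control vehicle means were 3.94 for GCG and 4.91 for NTS, below the silenced vehicle means of 8.69 and 8.78. With control siRNA GCG was thus at background before hormone and NTS near it, so neither could fall as far there. With values under 4 set to 4 the differences of GCG and NTS were -4.45 and -3.88. Of 11 gut and endocrine peptide genes 3 rose and 5 fell, and the difference was above 0 for 3 and below 0 for 4. These counts and those below stand against 25.5% of all genes higher and 27.7% lower, and differences against 13.2% and 10.5%. REG4, a secreted lectin of the gut, fell by 3.78 ± 0.13. CPE, the carboxypeptidase that trims prohormones, rose by 0.83 ± 0.07 and changed by -0.50 with control siRNA (difference 1.33 ± 0.10). Of 10 acute-phase, complement and coagulation genes 5 rose and 1 fell (0 to 2 across the alternatives), and the difference was above 0 for 3 and below 0 for 2. Of 6 serpins 4 rose and 2 fell. Where genes had to exceed 6 on 3 arrays, 3 of the former and 2 of the latter rose. Of the acute-phase, complement and coagulation genes with a probe set 10 of 30 passed the filter, and of the serpins 6 of 17. SERPIND1 and SERPINA3 passed through their silenced R1881 arrays alone, so their rises follow from the filter. Among tested genes with a silenced vehicle mean under 4, 45.3% rose and 4.72% fell. SERPINA3, the antichymotrypsin gene, went from 1.99, 1.91 and 1.89 to 5.89, 6.50 and 6.53, a larger rise than with control siRNA (difference 3.21 ± 0.30). With values under 4 set to 4 its rise and its difference were both 2.31. The neuroserpin gene SERPINI1 fell by 3.43 ± 0.11.

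SRF and actin cytoskeleton targets are of interest because their factor was lowered on all arrays of the comparison. Of 26 tested 5 rose, 8 fell and 13 did not pass, with a median of 0.03, and after quantile normalization 8 rose and 8 fell. Among all genes 25.5% were higher and 27.7% lower. The median with control siRNA was 0.24, with 12 rises and 6 falls, against 26.9% and 33.8% of all genes. The difference was below 0 for 10 and above 0 for 3, against 10.5% and 13.2% of all genes. MYLK, the myosin light chain kinase gene, read 8.48, 8.56 and 8.72 in vehicle and 5.57, 5.68 and 6.14 in R1881, a fall larger than with control siRNA (difference -1.99 ± 0.30). The tropomyosin gene TPM4 fell by 0.89 ± 0.10 where it changed by 0.09 with control siRNA (difference -0.98 ± 0.15), and CORO1C, an actin-binding coronin gene, by 0.88 ± 0.10. PDLIM5, which ties kinases to the actin cytoskeleton, rose from 9.60, 9.71 and 9.66 to 11.09, 11.12 and 11.14, and vinculin (VCL) and alpha-actinin 1 (ACTN1) rose by 0.76 ± 0.08 and 0.73 ± 0.09. The CArG box, the SRF site, stood in the 250 bases before the start of 4 of 23 of these genes with a promoter entry (17.4%) of 0.916% of tested genes and of 1.14% of all promoters.

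Immediate-early genes and feedback inhibitors of ERK signalling rose in 17 of 30 cases and fell in 3 (1 to 5 across the alternatives). This count and the adhesion counts below stand against 25.5% of all genes higher and 27.7% lower. DUSP5, a nuclear phosphatase of ERK, read 4.55, 5.02 and 4.51 in vehicle and 8.29, 8.24 and 8.39 in R1881, with no overlap. The Krüppel-like factor gene KLF5 rose by 2.16 ± 0.18. Adhesion genes were mixed: 8 of 17 integrin and focal adhesion genes rose and 2 fell (1 or 2 across the alternatives), and 5 of 18 genes of extracellular matrix and mesenchymal character rose and 9 fell. ITGAV, the alpha subunit of vitronectin receptors, went from 9.14, 8.91 and 9.21 to 11.54, 11.90 and 11.89, and zyxin (ZYX) fell by 0.66 ± 0.10 where it changed by 0.53 with control siRNA (difference -1.18 ± 0.13). SNAI2, the repressor Slug of mesenchymal transitions, rose from 3.82, 3.72 and 2.87 to 8.44, 8.46 and 8.43, more than with control siRNA (difference 2.55 ± 0.47). The collagen gene COL3A1 fell from 7.91 ± 0.21 to 4.07 ± 0.44 (SD, n = 3 each) and the laminin gene LAMC1 rose by 1.90 ± 0.08. Vimentin (VIM) rose by 0.51 ± 0.09 and changed by -0.45 with control siRNA (difference 0.96 ± 0.13).

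Signalling pathways that meet the androgen receptor in prostate cells changed member by member, and the counts that follow stand against 25.5% of all genes higher and 27.7% lower. In IGF and insulin signalling 11 of 23 genes rose and 6 fell: the adaptor gene IRS2 went from 2.95, 3.11 and 2.97 to 7.05, 7.11 and 7.21, and the receptor gene IGF1R rose by 2.61 ± 0.09. INPP4B, a lipid phosphatase that restrains PI3-kinase signalling, rose by 3.91 ± 0.11, or by 2.90 with values under 4 set to 4. The adaptor GRB10 and the regulatory subunit PIK3R3 fell by 2.72 ± 0.11 and 2.30 ± 0.08. Among 12 ERBB genes 5 rose and 5 fell, the ligand gene NRG3 by 2.06 ± 0.32 (0.78 with values under 4 set to 4), while with the passing probe set of the lowest mean 3 rose and where genes had to exceed 6 on 3 arrays 3 fell. Of 21 WNT pathway genes 3 rose (5 after quantile normalization) and 10 fell, with the receptor FZD5 rising by 2.19 ± 0.06 and the transcription factor LEF1 and the receptor FZD3 falling by 2.33 ± 0.16 and 2.08 ± 0.09. The fall of LEF1 was 1.01 with values under 4 set to 4. NOTCH pathway genes rose in 10 of 16 cases and fell in 4 (2 to 5 across the alternatives): the target HES1 went from 5.15, 5.15 and 4.90 to 8.55, 8.53 and 8.65, HES6 rose by 3.26 ± 0.12, and the receptor NOTCH3 fell by 1.30 ± 0.11. In the TGF-beta and BMP pathway 5 of 24 genes rose and 8 fell, and PMEPA1, an inhibitor of that pathway and of androgen receptor stability, read 8.37, 8.57 and 8.40 and then 11.50, 11.19 and 11.43.

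Transcription factors and cofactors of the prostate lineage moved both ways. All list counts of this paragraph stand against 25.5% of all genes higher and 27.7% lower. Of 21 genes for androgen receptor partners, pioneer factors and coregulators 3 rose and 12 fell, with HOXB13 and GATA2 falling by 0.99 ± 0.08 and 1.13 ± 0.07 and the ETS factor SPDEF rising by 1.71 ± 0.08. MYB, a proto-oncogene of proliferating cells, went from 5.48, 6.67 and 7.04 to 2.74, 2.74 and 2.82, or by 2.40 downward with values under 4 set to 4. Parts of the super elongation complex, which releases paused RNA polymerase II, rose in 3 and fell in 3 of 16 cases, against 25.5% and 27.7% of all genes: AFF3 went from 5.15, 4.99 and 4.08 to 9.12, 9.47 and 9.31, EAF2 rose by 3.71 ± 0.15 and ELL2 by 3.31 ± 0.10. EAF2 rose less than with control siRNA (difference -1.77 ± 0.21). Genes shared by the androgen and glucocorticoid receptors rose in 16 of 19 cases and fell in 2 (1 or 2 across the alternatives), with a median of 1.28, S100P among them at 3.07 ± 0.13 and KLF9, itself a glucocorticoid target in many tissues, falling by 0.73 ± 0.10. Of 50 enzymes of histone and DNA methylation and deacetylation 5 rose (2 with the passing probe set of the lowest mean) and 24 fell. The Polycomb methyltransferase gene EZH2 fell by 1.20 ± 0.30 and the demethylase gene KDM6A fell by 1.04 ± 0.06.

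Stress programmes gave a divided picture, again against 25.5% of all genes higher and 27.7% lower. Of 26 p53 targets 5 rose (3 to 5 across the alternatives) and 14 fell, and the difference was above 0 for 12 and below 0 for 2, against 13.2% and 10.5% of all genes. SESN1 and SESN3, sestrins that restrain mTORC1, fell by 2.03 ± 0.08 and 1.86 ± 0.11, while the secreted stress cytokine gene GDF15 went from 13.39, 13.41 and 13.20 to 14.73, 14.77 and 14.68. Hypoxia-type targets rose in 16 of 33 cases and fell in 10, with NDRG1 rising by 3.32 ± 0.10 and BHLHE40 by 3.30 ± 0.14, and the prolyl hydroxylase EGLN3 and the vasodilator gene ADM falling by 2.25 ± 0.18 and 2.11 ± 0.34. ATF4 targets, which supply amino acids under stress, rose in 19 of 31 cases and fell in 4. The neutral amino acid carriers split: SLC1A4 rose by 1.59 ± 0.17 and SLC7A5 fell by 1.17 ± 0.25, or by 0.70 with values under 4 set to 4. Heat shock and cytosolic chaperone genes fell in 14 of 24 cases and rose in 2 (0 to 3 across the alternatives), HSP90AB1 by 0.46 ± 0.09, and of 45 autophagy and lysosome genes 20 rose and 7 fell, with WIPI1, which binds phagophores, rising by 2.64 ± 0.11.

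Ribosome biogenesis genes and cytosolic ribosomal protein genes fell by small amounts, the latter mostly not after quantile normalization. Of 34 ribosome biogenesis genes 15 fell and 1 rose (0 to 4 across the alternatives). With control siRNA 27 fell, where 33.8% of all genes did. The difference was above 0 for 16 and below 0 for none. At an adjusted p under 0.01 the count of falls was 8. WDR12, of the large subunit assembly complex, fell by 0.81 ± 0.07, and the nucleolar methyltransferase FBL by 0.67 ± 0.08, less than with control siRNA (difference 0.79 ± 0.11). Of 48 cytosolic ribosomal protein genes 46 fell and none rose, with a median of -0.40, but after quantile normalization 12 fell, the median was -0.07, and the changes of RPLP1 and RPS16 turned from -0.30 and -0.27 to 0.021 and 0.083. RPS12 and RPS6 fell by 0.63 and 0.63, or by 0.30 and 0.28 after quantile normalization. Genes with a vehicle level of 12 or more fell more often than others as deposited: 193 of 367 (52.6%) fell and 45 rose. After quantile normalization 139 of the 367 (37.9%) fell and 57 rose, and genes with a level of 10 to 12 fell more often (40.2%). In other lists of translation, of 18 cytosolic aminoacyl-tRNA synthetase genes 8 rose and 1 fell, and of 62 mitochondrial ribosomal protein genes 9 rose and 10 fell. All list counts of silenced cells in this paragraph stand against 25.5% of all genes higher and 27.7% lower, and differences against 13.2% and 10.5%.

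**Figure D4:**
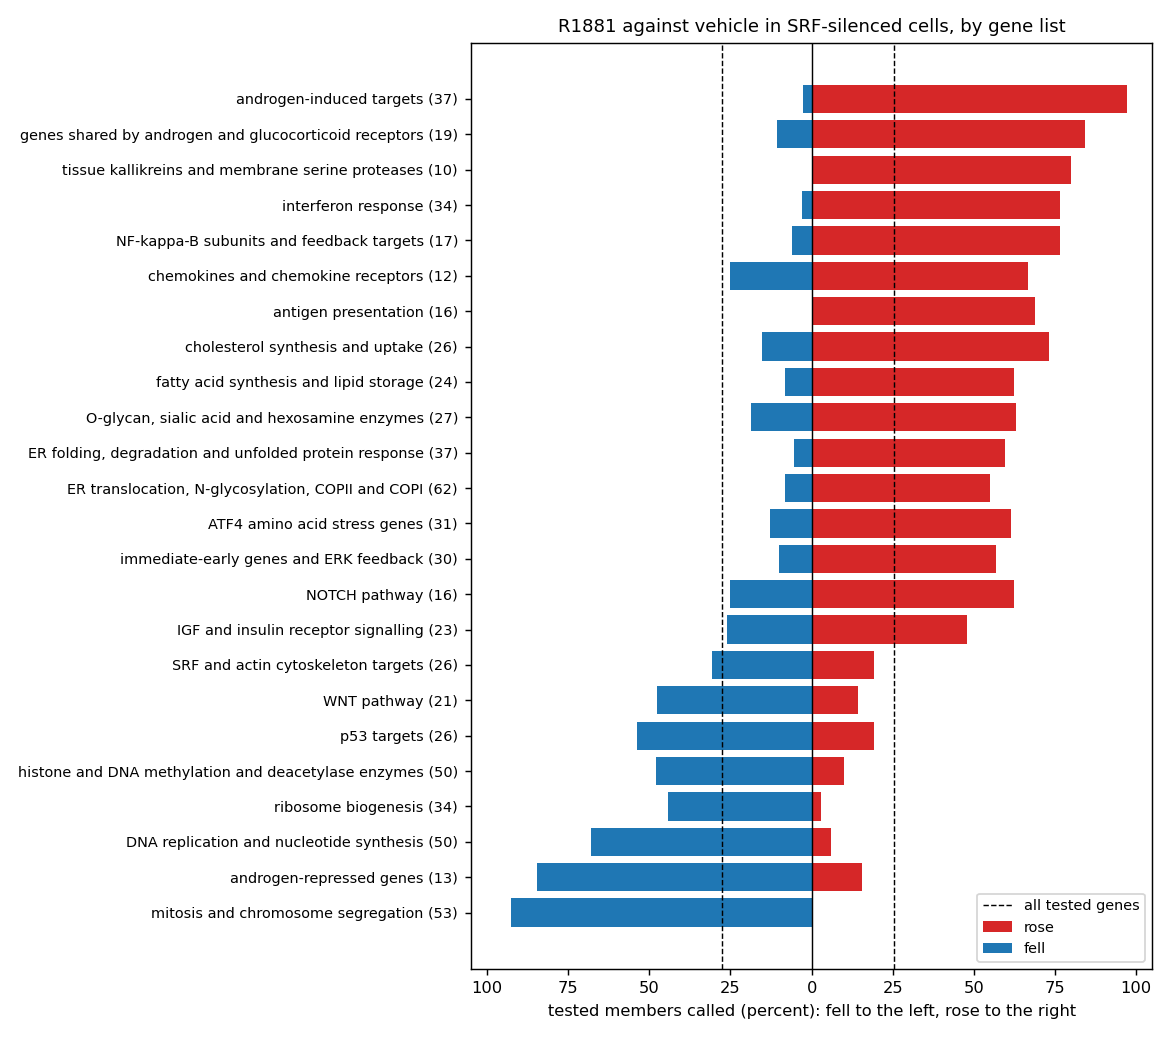
Share of the tested members of 24 gene lists (percent) that rose (right) or fell (left) with R1881 in SRF-silenced cells at an adjusted p under 0.05, with the number tested beside each name; dashed lines mark the 25.5% and 27.7% of all tested genes. Androgen-induced targets (36 of 37 higher), interferon genes (26 of 34 higher) and mitosis genes (49 of 53 lower) lie far past the lines.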

How the data were processed

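RNA of 12 LNCaP samples, 3 in each of 4 groups, was hybridised to 1-colour Affymetrix arrays. The deposited values are log2 signals that the authors made with GCRMA, per the submitters' processing notes; its version and settings are not given in the sources used here. GCRMA subtracts an estimated background and normalises arrays together, so values near 4 and below carry little order.

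Of 54675 probe sets, 41091 had 1 gene symbol in the platform annotation, 1801 several and 11721 none; 62 were control probe sets. Of these 41091, 41037 matched a RefSeq gene number and the other 54 kept the platform symbol. A gene was tested where a probe set exceeded a log2 of 4 on 3 arrays, with its highest-mean probe set. A model of the 4 group means over all 12 arrays was fitted in limma 3.58.1 (R 4.3.3), using moderated variances; p-values were adjusted by Benjamini-Hochberg across the 10265 genes, with calls at an adjusted p under 0.05. The difference is the R1881 change with SRF siRNA minus that with control siRNA. The number of arrays and the closeness of a signal to background limit the precision. In simulated arrays of 10265 genes, 50 genes were changed by each of 0.25, 0.5, 1 and 2 (log2). The fit called 16%, 54%, 92% and 100% of them, with 11 false calls. Far more genes were called in the real data, so these rates need not hold there.

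Named genes followed a rule: the 12 largest rises and falls with group means of at least 6, the 8 largest switches across background, the 8 largest changes near 0 with control siRNA, the 6 largest opposite responses, the 3 largest called changes in each direction of each list, SRF and KLK3, and the most abundant called genes. Exceptions are marked. The members and lists were chosen with earlier results of these data known. The alternatives were a higher or absent filter on low values, a floor, other probe sets, other scalings, a trended variance, a replicate block, a stricter threshold, an RNA integrity covariate and leaving out arrays. Promoters come from the RefSeq table of GRCh38.p14, the first listed for each gene, with entries for 8514 tested genes, and motifs were searched on both strands of 250 bases in Python 3.11.15.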

Additional observations from a re-analysis of the deposited data

Results flagged for a closer look

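The genes below are those for which the report prints a difference between the responses to R1881 with SRF siRNA and control siRNA that passed the limma test (adjusted p under 0.05); 1359 higher and 1082 lower differences passed in all, among them those of other genes named in the report. Each value is the silenced change minus the control change on the log2 scale.

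The silenced response lay higher for the chemokine genes CXCL10 (3.15), CCL20 (3.22), CXCL8 (2.61) and CXCL11 (1.37), and for the interferon genes IFIT2 (2.08) and IFIT3 (2.06). It also lay higher for SERPINA3 (3.21), SNAI2 (2.55), CPE (1.33) and VIM (0.96). Among cell cycle and ribosome genes it was higher for RRM2 (2.99), CDKN2B (1.61), CCNB2 (1.22) and FBL (0.79). ACKR3 (2.52) and CYP3A5 (1.32) were also higher. With values under 4 set to 4 the differences of CXCL10, CCL20, CXCL8, CXCL11, CCNB2 and SERPINA3 were 1.84, 1.91, 1.67, 0.90, 0.74 and 2.31.

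The silenced response lay lower for the peptide genes GCG (-4.70) and NTS (-3.90), and for the actin-linked genes MYLK (-1.99), ZYX (-1.18) and TPM4 (-0.98). It was lower as well for the spindle gene ASPM (-1.98), the elongation factor gene EAF2 (-1.77) and the class II chaperone gene HLA-DMA (-1.48). The sterol regulators INSIG1 (-1.11) and INSIG2 (-1.05) and the decarboxylase gene DDC (-0.51) also had a lower response. With values under 4 set to 4 the difference of ASPM was -1.70, as was its change in silenced cells. Those of GCG and NTS were then -4.45 and -3.88, and their control vehicle levels at or near background limited the control fall.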

How the results depend on the processing

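The counts of genes higher and lower in silenced cells, also at 2-fold or more, stayed within 1.5 times under every alternative run. With single arrays left out, 2257 to 2623 genes were higher and 2434 to 2844 lower. Without the third array of both silenced groups 2086 were higher and 2606 lower, and the difference was called higher for 953 and lower for 945. The count of higher differences was 740 at an adjusted p under 0.01 and 848 with the passing probe set of the lowest mean, and that of lower differences 627 at the stricter threshold, which is a smaller set by construction. Whether the replicate numbers pair the samples is not stated. Deviations of same-numbered arrays correlated at -0.02 to 0.10 and those of other pairs at -0.07 to 0.07, which does not settle it with 3 arrays per group. With the replicate block 2507 genes were higher, 2751 lower, and 1125 and 920 differences were called.

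Among the genes named, the difference of ACKR3 was -0.081 with the passing probe set of the lowest mean, the change of RPS16 was 0.063 with that probe set and 0.083 after quantile normalization, and that of RPLP1 was 0.021 after quantile normalization. The call of CHRNA2 was also lost without the filter on low values. The cause of these turns was not tested. No scaling moved the median change of all genes by over 0.1 (-0.03 as deposited, -0.0002 after quantile normalization). Of the 2073 genes with 2 or more called probe sets, 39 had probe sets called in opposite directions. Signals near background limit the size of the switches described.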
